A study of Mus musculus with 8 samples.

Results

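Outer hair cells are the motile receptor cells of the cochlea, and 8 genes tied to them or to their efferent receptor were read across genotype and cochlear region in mice at postnatal day 16. The 8 were given as a list of symbols, with no threshold on measured values, and were chosen with earlier results of these data known. They are Slc26a5, Chrna9, Chrna10, Strip2, Lmod3, Aqp11, Sri and Lbh. Of these, 7 had a probe set that lists only that gene, out of 18193 such genes on the array, and 6 lay above the filter on low values that left 13221 genes to test. Chrna10 had no probe set in the annotation supplied and was not analysed here. The filter was the 40th percentile of mean log2 signal over probe sets, a log2 value of 5.27, and Slc26a5 lay below it.

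The organ of Corti carries the hair cells along the cochlear spiral. It was parted into apex and base, and each sample was hybridised to 1 array. Control mice were Atoh1-Cre;Dicer1(flox/wt) littermates and conditional knockout (cKO) mice were Atoh1-Cre;Dicer1(flox/flox), from a cross of Dicer1tm1Bdh with Tg(Atoh1-cre)1Bfri. All 4 groups (control apex, control base, cKO apex, cKO base) therefore carried the Cre transgene and at least 1 floxed allele of Dicer1, whose product makes mature microRNAs, and the controls kept 1 wild-type allele. The Atoh1 enhancer directs Cre to developing hair cells, so other cells of the tissue may keep Dicer1. Each group held 2 samples, and each sample pooled the apical or the basal pieces from both ears of 1 mouse. The apical and basal samples of 1 genotype and number were presumed to come from 1 mouse, which gives 4 mice.

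Outer hair cells change length with their membrane voltage through prestin, encoded by Slc26a5, and so amplify the motion of the cochlear partition. Efferent fibres from the brainstem restrain this motion: acetylcholine opens a receptor built from the alpha9 and alpha10 subunits, encoded by Chrna9 and Chrna10, and the calcium that enters opens the potassium channel Kcnn2. Base and apex of the cochlea respond to high and low sound frequencies, and hair cells mature along that axis. Among the other members, Strip2 encodes a partner of striatin complexes, Lmod3 a leiomodin that nucleates actin filaments and is best known from muscle, Aqp11 an intracellular aquaporin, Sri the calcium-binding protein sorcin, and Lbh a regulator of transcription.

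The stretch just before the gene start is shown for the 3 members with promoter sequence in the supplied table and the smallest p for base against apex, to place them in the genome. The sequences are from RefSeq on GRCm38.p6, where 7 of the 8 members were matched and Lmod3 was not. Capitals mark the E-box, CANNTG, a motif read by basic helix-loop-helix factors, of which Atoh1 is one. The Chrna9 stretch is chr5:65966874-65967123 on the plus strand and lies inside the outermost span of the gene, before an internal start. The Strip2 stretch is chr6:29916763-29916975 on the plus strand, cut off at the outermost start of the gene, and the Aqp11 stretch is chr7:97738248-97738497 on the minus strand.
Chrna9: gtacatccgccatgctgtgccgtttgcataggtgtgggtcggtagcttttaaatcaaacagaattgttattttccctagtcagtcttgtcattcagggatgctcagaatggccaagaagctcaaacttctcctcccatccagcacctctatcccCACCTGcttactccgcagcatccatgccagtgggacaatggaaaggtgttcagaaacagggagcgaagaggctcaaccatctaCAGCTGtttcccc
Strip2: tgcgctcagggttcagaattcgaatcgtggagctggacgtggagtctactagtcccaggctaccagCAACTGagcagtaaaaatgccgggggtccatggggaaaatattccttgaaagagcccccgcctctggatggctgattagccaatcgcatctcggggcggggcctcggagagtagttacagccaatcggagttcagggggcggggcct
Aqp11: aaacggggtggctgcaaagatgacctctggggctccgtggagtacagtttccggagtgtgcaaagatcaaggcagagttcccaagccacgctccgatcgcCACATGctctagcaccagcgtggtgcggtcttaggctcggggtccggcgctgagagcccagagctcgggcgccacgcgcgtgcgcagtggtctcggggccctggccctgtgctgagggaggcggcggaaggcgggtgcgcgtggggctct
The Chrna9 stretch holds 2 E-boxes, and those of Strip2 and Aqp11 hold 1 each. The E-box reads the same on both strands as a pattern and occurs in 66.2% of all 32851 windows of 250 bases in the table, so its presence sets no member apart. The GC box, GGGCGG, was searched on both strands and occurs in 32.7% of all windows. Strip2 holds 2 GC boxes in the stretch shown, Slc26a5 holds 1 in its window, and Chrna9, Chrna10, Aqp11 and Sri hold none. Lbh holds 3 and is the one member whose window has TATAAA, which 12.4% of all windows hold on either strand.

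The 8 arrays had median signals between 67.3 and 100.4, with the trimmed mean set to 500 on each. The targeted gene, Dicer1, read at log2 9.04 to 9.57 in the 4 control arrays and 9.06 to 9.41 in the 4 cKO arrays, and cKO minus control was -0.09 ± 0.22 (SE) for apical and -0.02 ± 0.22 for basal tissue. The signal of its probe set thus did not separate the genotypes, and whether that probe set lies in the deleted exon was not analysed here. Of 22 pan hair cell genes, 17 lay above the filter, Myo7a, the unconventional myosin of hair cells, among them. Xist, the transcript of the inactive X chromosome, read 12.54 and 12.39 in the control arrays of replicate 1 and 6.28 to 8.23 in the other 6 arrays, so that 1 control mouse stood apart, and the part of this in the genotype differences was not tested. The labels name the samples of a group as biological replicates. The p-values of the main fit rest on 1 spread per gene, pooled over the 4 groups of 2 samples and moderated by a trend over all genes tested. That fit treats the apical and basal samples of a presumed mouse as separate. Fits set up otherwise are named where used.

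Prestin was read by 1 probe set at the low end of the array. In controls Slc26a5 had log2 signals of 5.04 and 5.31 in the apex and 4.24 and 2.06 in the base. In cKO mice it had 5.14 and 5.05 in the apex and 1.73 and 1.41 in the base. Every basal value lay under every apical value, but only 1 of the 8 values passed the filter level, and the order of values under it was not relied on. Base minus apex was -2.78 over both genotypes as measured and -0.01 once values under the filter level were raised to it. With only 1 of the 8 values above that level, the raised value had to lie near 0, so it does not show that the regions are alike. With no filter the difference was -2.78 ± 0.57 (SE; limma, adjusted p = 0.0819). The apical means were 5.17 ± 0.19 (SD, n = 2) in controls and 5.10 ± 0.07 in cKO mice, and the basal means 3.15 ± 1.54 and 1.57 ± 0.23. All 4 lay under the filter level, so no genotype difference is read from them. In bulk tissue, fewer cells of a type and less RNA in each cell cannot be told apart, here or for any member.

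Chrna9, the receptor subunit that could be read, was lower in the base of every mouse. Control mice had log2 signals of 7.26 and 7.92 in the apex and 4.16 and 5.47 in the base. The cKO mice had 7.88 and 7.73 in the apex and 3.29 and 4.98 in the base. All 4 basal values lay under all 4 apical values, and 3 of the basal values lay under the filter level. The basal means, 4.82 in controls and 4.13 in cKO mice, also lay under it, so Chrna9 entered the test through its apical values. Base minus apex over both genotypes was -3.23 ± 0.46 (SE; 95% interval -4.30 to -2.15; limma, adjusted p = 0.0299), 9.35-fold lower in measured signal and at least 5.19-fold lower with the low values raised to the filter level. Within mice the difference was -3.10 and -2.45 in controls and -4.60 and -2.76 in cKO mice. The call was lost on leaving out any of the 4 apical arrays or either cKO basal array, with adjusted p from 0.0702 to 0.148 and the value between -3.65 and -2.80. It was kept without either control basal array. The other 2 Chrna9 probe sets lay under the filter, with no value above it on any array.

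Strip2 was lower in the base of every mouse as well. Its log2 signals were 8.98 and 9.10 in control apex and 7.34 and 6.99 in control base. In cKO mice they were 8.96 and 8.65 in the apex and 6.96 and 6.78 in the base. The apical and basal values did not overlap, and all of them stood above the filter level. Base minus apex over both genotypes was -1.91 ± 0.16 (SE; 95% interval -2.29 to -1.52; limma, adjusted p = 0.0141), 3.75-fold lower, and ranked 4 by p among all genes tested. Within mice it was -1.65 and -2.11 in controls and -2.00 and -1.87 in cKO mice. The adjusted p rose to 0.0553 without control apex replicate 2, to 0.103 and 0.0704 without cKO apex replicates 1 and 2, and to 0.0946 and 0.0698 without cKO base replicates 1 and 2, while the value stayed between -1.99 and -1.82 over the 8 fits that each left out 1 array.

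**Figure D1:**
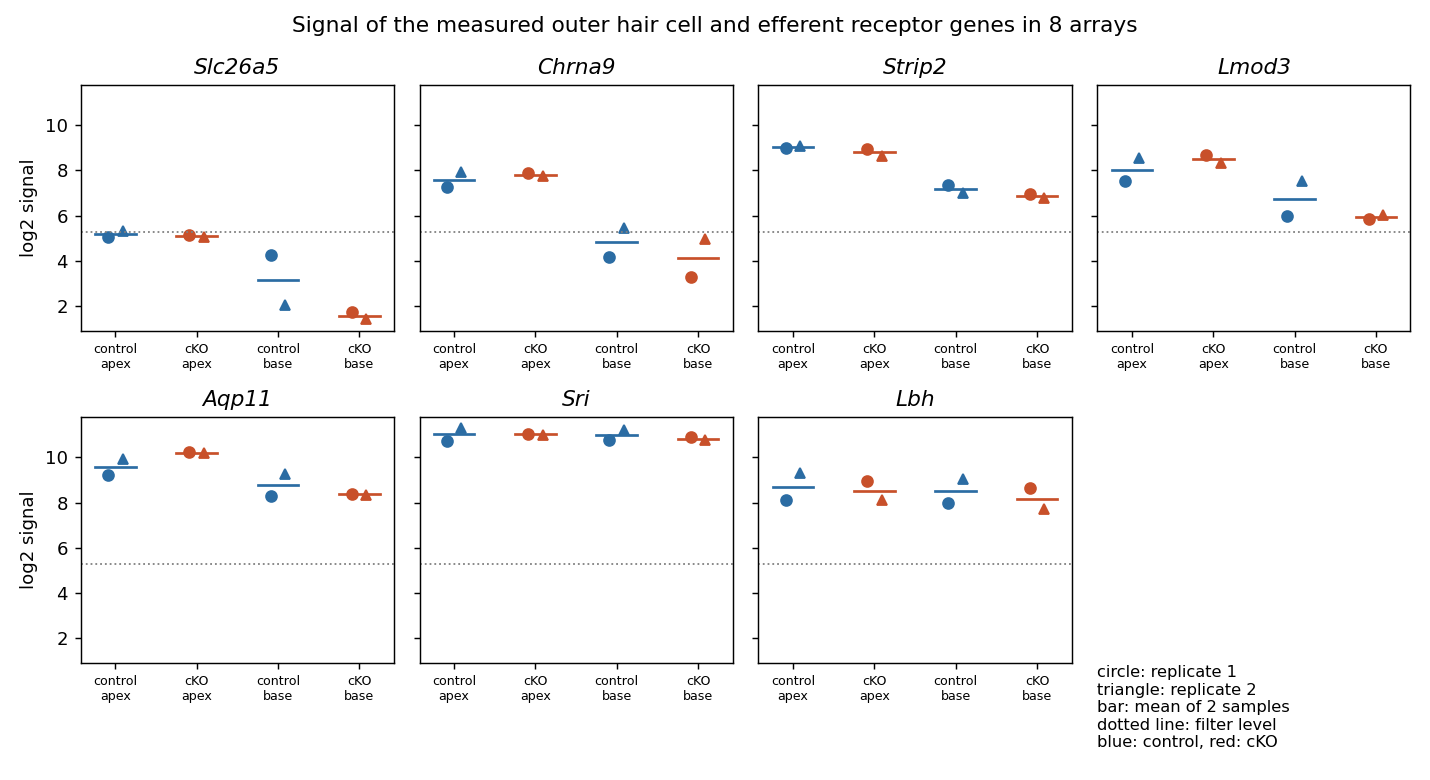
Log2 signal of the 7 measured members in each of the 8 arrays, by group, with circles for replicate 1, triangles for replicate 2, bars for the mean of 2 samples and a dotted line at the filter level of 5.27. Chrna9 and Strip2 sit lower in all 4 basal than in all 4 apical arrays, Slc26a5 has 1 value above the dotted line, and apical and basal values of Sri and Lbh overlap.

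Lmod3 and Aqp11 were lower in the base of each mouse, but missed the threshold. Lmod3 had log2 signals of 7.51 and 8.53 in control apex, 5.98 and 7.53 in control base, 8.68 and 8.31 in cKO apex, and 5.84 and 6.01 in cKO base. Control base replicate 2 lay just above the lowest apical value, so the regions overlapped. Base minus apex was -1.92 ± 0.38 (SE; 95% interval -2.80 to -1.03; limma, adjusted p = 0.0646). Aqp11 had 9.22 and 9.95 in control apex, 8.30 and 9.26 in control base, 10.26 and 10.18 in cKO apex, and 8.37 and 8.35 in cKO base. Here too the control regions overlapped narrowly, while the cKO regions stood apart. Base minus apex of Aqp11 was -1.33 ± 0.25 (SE; 95% interval -1.91 to -0.75; adjusted p = 0.0561). With the presumed mouse as a random replicate block, the adjusted p was 0.0236 for Lmod3 and 0.0202 for Aqp11, both past the threshold, and with the mouse as a fixed block 0.0198 and 0.0184. These 2 block fits called 527 and 255 genes in all, against 157 in the main fit. With the mean of its probe sets Aqp11 read -0.92 (limma, adjusted p = 0.142). Leaving out 1 array gave values from -2.30 to -1.53 for Lmod3 and from -1.57 to -1.09 for Aqp11. Another Aqp11 probe set pointed the same way at -0.65 ± 0.18 (unadjusted p = 0.00794, adjusted p = 0.179), and a further one at -0.77 ± 0.49.

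Neither Sri nor Lbh passed between base and apex. Sri had log2 signals of 10.75 and 11.29 in control apex, 10.78 and 11.21 in control base, 11.06 and 11.01 in cKO apex, and 10.92 and 10.76 in cKO base. Base minus apex was -0.11 ± 0.16 (SE; 95% interval -0.48 to 0.27; adjusted p = 0.764), with 0.04 in control mouse 1 and -0.08 to -0.25 within the other 3 mice. A dimmer Sri probe set read -1.09 ± 0.38 (unadjusted p = 0.0230, adjusted p = 0.257), so the probe sets of Sri gave differences of unequal size. Lbh had 8.11 and 9.29 in control apex, 8.0 and 9.05 in control base, 8.95 and 8.12 in cKO apex, and 8.66 and 7.71 in cKO base. Its replicates lay further apart than its regions, and base minus apex was -0.27 ± 0.39 (95% interval -1.18 to 0.64; adjusted p = 0.760). Within each of the 4 mice Lbh had a lower basal value, with differences from -0.11 to -0.41.

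Of the 6 members tested, 2 were called lower in the base over both genotypes, against 0.598% of all genes tested (79 of 13221), and none was called higher. At an unadjusted p under 0.05 there were 4 of the 6, against 17.2% of all genes. The median difference was -1.62 over the members and -0.02 over all genes. All 4 basal arrays lay below all 4 apical arrays for 2 of the 6, against 6.4% of all genes, and base lay below apex in all 4 mice for 5 of the 6, against 17% of all genes. With the mouse as a random replicate block, 4 of the 6 were called, with 527 genes called in all in place of 157, and with it as a fixed block 4 of the 6, with 255. The members were chosen with earlier results of these data known, so these shares describe them and give no independent support. Chrna9, 1 of the 2 called in the main fit, passed the filter through its apical values.

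**Figure D2:**
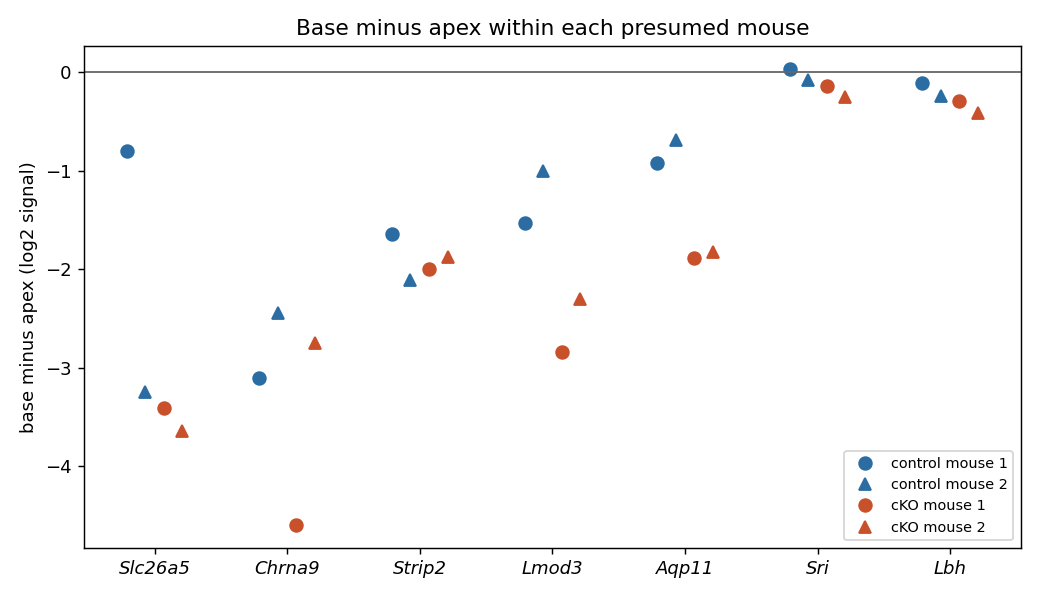
Base minus apex in log2 signal for each measured member within each of the 4 presumed mice, circles for mouse 1 and triangles for mouse 2 of each genotype, blue for control and red for cKO. Points for Chrna9 and Strip2 lie between -4.60 and -1.65, those for Sri and Lbh between -0.41 and 0.04, and the Slc26a5 points rest on basal values under the filter level.

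Within controls alone, limma called 0 members and 0 of all genes (0%), and 3 members had an unadjusted p under 0.05, against 7.52% of all genes (994). Strip2 had the smallest p of all 13221 genes there (-1.88 ± 0.23, adjusted p = 0.226), and Chrna9 read -2.77 ± 0.65 and Lmod3 -1.27 ± 0.54. Over 20 alternative fits, those without 1 array among them, the Strip2 difference in controls ran from -2.05 to -1.705. Within cKO mice, 0 of the 6 members were called, against 0.0681% of all genes called lower (9), and 4 had an unadjusted p under 0.05, against 11.3% (1490). Chrna9 read -3.68 ± 0.65 there. With values under the filter level raised to it, the Chrna9 difference was -2.53 in cKO mice and -2.22 in controls. Lmod3 in cKO mice read -2.57 ± 0.54, Strip2 -1.94 ± 0.23 (adjusted p = 0.0534) and Aqp11 -1.86 ± 0.35. With the mouse as a random replicate block, 3 members passed in cKO mice (Chrna9, adjusted p = 0.0437, Strip2, 0.0209, and Aqp11, 0.0434), and in a fit of the compared groups alone 4 passed, Lmod3 (0.00523) being the other.

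No member passed between the genotypes. In the apex, limma called 0 of the 6 members and 0% of all genes, and at an unadjusted p under 0.05 it gave 0 members and 2.19% of all genes (290). The largest apical difference among the members tested was that of Aqp11, higher in cKO mice by 0.63 ± 0.35 (SE; 95% interval -0.19 to 1.45; unadjusted p = 0.113). It was 0.27 without control apex replicate 1 and 0.17 with the mean of its probe sets, one of which read -0.54 ± 0.69. Chrna9 differed by 0.22 ± 0.65 (95% interval -1.31 to 1.74), Strip2 by -0.24 ± 0.23 (-0.78 to 0.30), Lmod3 by 0.47 ± 0.54 (-0.78 to 1.73) and Sri by 0.02 ± 0.23 (-0.52 to 0.55). The intervals for Chrna9 and Lmod3 reach 1.74 and 1.73, so these data do not show that the levels are alike.

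In the base, 0 of the 6 members and 0% of all genes were called, and 0 members had an unadjusted p under 0.05, against 3.12% of all genes (413). All 6 estimates were below 0, with a median of -0.38, while 50.2% of all genes lay below 0. Lmod3 differed by -0.83 ± 0.54 (SE; 95% interval -2.09 to 0.42), Chrna9 by -0.69 ± 0.65 (-2.21 to 0.84), Aqp11 by -0.42 ± 0.35 (-1.24 to 0.40), Lbh by -0.34 ± 0.55 (-1.63 to 0.94), Strip2 by -0.29 ± 0.23 (-0.84 to 0.25) and Sri by -0.16 ± 0.23 (-0.69 to 0.37). Without control base replicate 1 the Lmod3 value was -1.60 and without control base replicate 2 it was -0.06. For Strip2 the unadjusted p was 0.242 (limma). The pan hair cell list had a median of -0.55 for this contrast and the stria vascularis list 1.39. A list of inner hair cell genes, which shares Otof with the pan hair cell list, had -1.18 in 4 tested genes with 0 called. The part of any of these lists in the members' values was not tested. The Chrna9 difference was -0.10 once values under the filter level were raised to it.

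**Figure D3:**
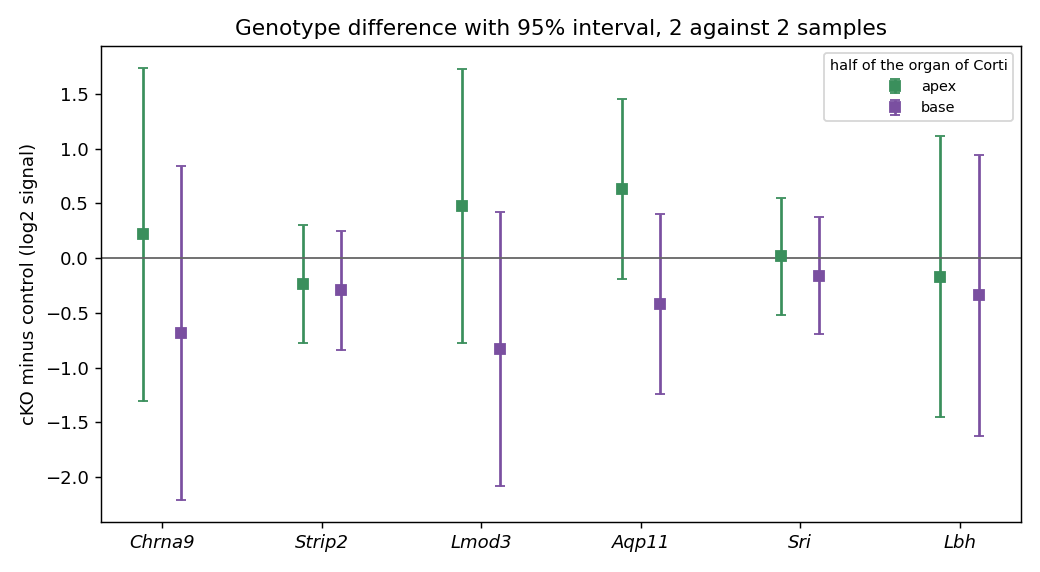
cKO minus control in log2 signal for the 6 members tested, with 95% intervals from the limma fit, green for apex and purple for base, 2 against 2 samples each. Every interval spans 0, and those of Chrna9 are the widest.

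The genotype difference was then compared between base and apex. None of the 6 members and 0% of all genes passed, and 0 members against 1.13% of all genes (149) had an unadjusted p under 0.05. Aqp11 had the smallest p among them, at -1.05 ± 0.50 (SE; 95% interval -2.21 to 0.11; unadjusted p = 0.0696), with Lmod3 at -1.31 ± 0.76 (-3.08 to 0.47) and Chrna9 at -0.90 ± 0.92. With the presumed mouse as a fixed block, the unadjusted p (limma) was 0.00549 for Aqp11 and 0.0174 for Lmod3. As a random block it gave 0.0318 and 0.0696. The adjusted p was 0.9998 for both genes in each of these fits. Without 1 array the Lmod3 value ran from -2.08 to -0.53, and that of Aqp11 from -1.53 to -0.57. With low values raised, that of Chrna9 was -0.32. For Strip2 it was -0.06 ± 0.33 (-0.82 to 0.71).

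General hair cell genes were also lower in the base. All 17 tested genes of a list of pan hair cell markers read lower there, with a median of -0.97, and 4 passed: Smpx at -1.79, Gfi1 at -2.01, Strc at -2.96 and Rasd2 at -1.55. Myo7a read -0.76 ± 0.22 (adjusted p = 0.153) and Otof, the otoferlin of the hair cell synapse, -0.91 ± 0.23 (adjusted p = 0.112). The mean of the list gave -0.88 in controls and -1.53 in cKO mice. Measured against that mean, the base minus apex value of Chrna9 was -1.89 in controls and -2.15 in cKO mice. With Chrna9 values under the filter level raised to it these became -1.33 and -1.0, in the opposite order. The list mean was left as measured there, though some list genes also lay under that level. In cKO base replicate 1, for instance, Lhx3 read 3.31 and Strc 4.22. Neither order of the genotypes is therefore relied on. For Strip2 the value against the list mean was -0.99 and -0.41. Lmod3 read -0.38 and -1.04, Aqp11 0.08 and -0.33, Sri 0.86 and 1.33, and Lbh 0.70 and 1.18. These relative values are descriptions of levels with no test, and the part of hair cell content in the members' differences was not tested. Of 12 supporting cell genes tested, 7 read below 0, with a median of -0.09, and 2 were called lower in the base, Sox2 (-1.37) and Jag1 (-1.19). A list of 10 stria vascularis genes had a median of 1.5 with 0 called and 4 of 10 at an unadjusted p under 0.05, against 17.2% of all genes. Among apical arrays the stria list mean was highest in control apex replicate 1 (9.81, against 8.08 to 8.98 in the others). Dct, a melanocyte enzyme, read 11.87 there and 6.19 to 9.37 in the other apical arrays. The stria list mean was lowest in control base replicate 1, of the same presumed mouse (7.74, against 11.03 to 11.34 in the other 3 basal arrays). Dct read 5.96 in that array and 13.65 to 13.91 in the other basal arrays. The part of this in the members' differences was not tested. Without that array the Chrna9 and Strip2 differences had adjusted p = 0.00831 and 0.00171, with 1518 genes called in all.

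**Figure D4:**
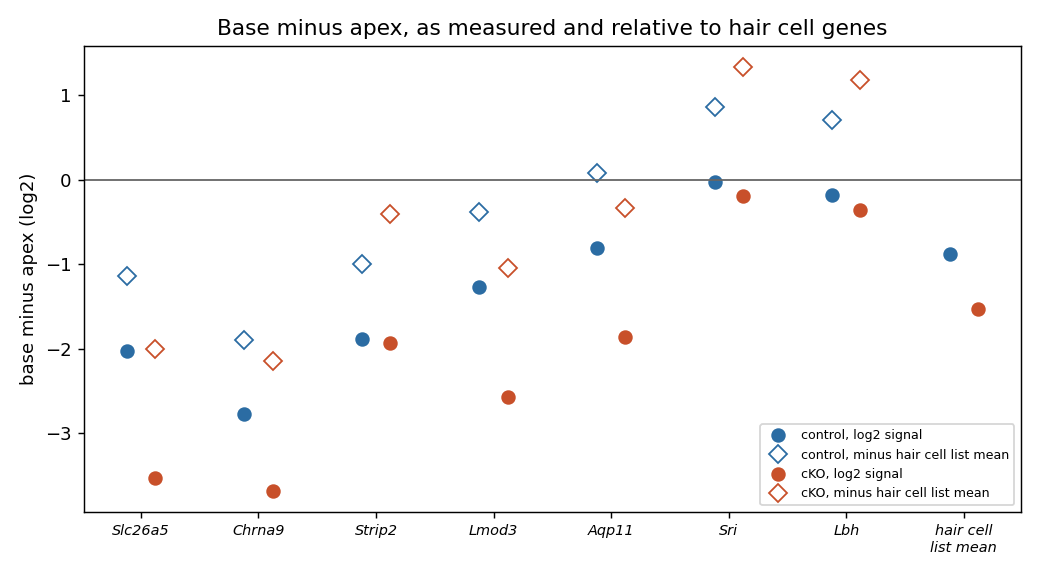
Base minus apex in log2 signal as measured (filled circles) and after subtracting the mean of 17 hair cell genes in each array (open diamonds), blue for control and red for cKO, with the list mean itself at the right. After subtraction Chrna9 is at -1.89 and -2.15 (-1.33 and -1.0 with only its own values under the filter level raised to it, the list mean left as measured). The Slc26a5 points rest on values mostly under that level, Aqp11 moves to 0.08 and -0.33, and Sri and Lbh move above 0.

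Other genes of outer hair cells and of the efferent system were read from lists. Of 10 further outer hair cell genes, 8 had a probe set, 7 were tested and 1 was called lower in the base: Ikzf2, the transcription factor helios, at -0.99 ± 0.15 (adjusted p = 0.0371). Ikzf2 had log2 signals of 10.80 and 10.42 in control apex, 9.72 and 9.71 in control base, 10.97 and 10.63 in cKO apex, and 9.53 and 9.92 in cKO base, with no overlap between regions. Car7, a carbonic anhydrase, read -1.25 ± 0.22 (adjusted p = 0.0530) and Kcnj13 -1.37 ± 0.38 (adjusted p = 0.142), while Bcl11b read -0.19, Sv2b 0.06, Dnm3 -0.25 and Cacng2 -0.30. The list median was -0.30, against -0.02 for all genes and -0.91 for 4 tested inner hair cell genes (0 called). Insm1 lay under the filter, and Ocm had no probe set and was not analysed here. Sv2b, Dnm3 and Cacng2 are also expressed by neurons, and the part of neurons in the values of any gene of this list was not tested.

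No partner of the receptor passed. Kcnn2, the calcium-activated potassium channel coupled to it, read 0.16 ± 0.18 in base minus apex (adjusted p = 0.693), and 0 of 6 tested efferent synapse genes were called (0 at an unadjusted p under 0.05), with a median of -0.12. Of the nerve terminal genes, only Ache, which breaks down acetylcholine, was tested, at -0.05 ± 0.47. Chat, which makes acetylcholine, lay under the filter. Of 14 other nicotinic subunits, 5 were tested and 0 called (0 at an unadjusted p under 0.05, median -0.19), and of 10 relatives of prestin in the SLC26 family, 5 were tested and 0 called (1 of 5 at an unadjusted p under 0.05, near the 17.2% of all genes, median 0.03). Slc26a4, the pendrin anion exchanger, read 1.19 ± 0.35 (adjusted p = 0.158). None of these lists held a gene called between genotypes in either region, and Bcl11b alone among them had an unadjusted p under 0.05, in the base, at 0.89 ± 0.30. Of 15 skeletal muscle genes, only 5 lay above the filter and were tested. Their median was -0.01 with 0 called (0 at an unadjusted p under 0.05). Acta1 read 0.03 ± 0.31, Myl1 -0.69 ± 0.47 and Casq1 0.54 ± 0.28. The part of muscle tissue in the Lmod3 difference was not tested.

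The genes most like each member were taken by Pearson r of log2 signal over the 8 arrays, as a description in which the points share region and genotype. Chrna9 was nearest Rnf182 (r = 0.994), Muc15 (0.987) and Nfe2l3 (0.979). Strip2 was nearest Pspc1 (0.993), Tmeff1 (0.987) and Atg12 (0.986). Lmod3 and Aqp11 named each other among their nearest 3 (r = 0.985) and shared Mgst1, at 0.993 and 0.989. Lmod3 was also near Rlbp1 (0.994), and Aqp11 near C1s1 (0.985). Sri was nearest Sfxn5, Gfap and Immp1l (each 0.959), and Lbh was nearest Marchf8 (0.978), Cdk18 (0.971) and Siglecg (0.953). Between members, Chrna9 correlated with Lmod3 at 0.940, with Aqp11 at 0.917 and with Strip2 at 0.905, Sri with Lbh at 0.897, and Chrna9 with Lbh at 0.302.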

How the data were processed

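The authors deposited linear intensity values of probe sets for 8 Affymetrix arrays in 1 table. In the values, every array has a mean of 500 once 2% is trimmed at both ends. MAS5 and affy 1.26 appear in the submitters' processing notes, with no role stated. Per the labels' protocols, total RNA was amplified in a labelling kit of 2 cycles, so RNA amount and amplification can enter the signal. No detection calls were used here.

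Of 45101 probe sets, 64 were controls, 34945 listed 1 gene, 932 several and 9160 none, and 34754 were matched by Entrez identifier. A gene was read from its probe set of highest mean log2 value, on log2 values with no pseudocount. limma 3.58.1 (R 4.3.3) was fitted to 4 group means over 8 arrays with a trend of variance on intensity (4 residual and 3.46 prior degrees of freedom), two-sided, with Benjamini-Hochberg adjustment over 13221 genes and a threshold of 0.05, after tests on simulated data. Same-numbered apex and base samples of 1 genotype were presumed to share a mouse, from the labels. Their deviations from group means correlated at r = 0.339 in controls and 0.0683 in cKO mice over genes.

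The members and lists were chosen with earlier results of these data known. Named genes were all members, the 3 genes of highest correlation with each tested member, up to 4 genes of smallest p per list described, a fixed set of markers (Ocm, Ikzf2, Kcnn2, Chat, Myo7a, Otof, Acta1, Dct and 1 more that is not reported here) and Dicer1. A few list genes were named beyond this rule after their values were seen (Bcl11b, Sv2b, Dnm3, Cacng2, Insm1), as was Xist. Alternatives covered the filter, a pseudocount of 16, quantile and 75th percentile scaling, the mean of probe sets, the variance model, replicate blocks, the compared groups alone, low values raised to the filter, and each array left out. Promoter windows of 250 bases came from RefSeq.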

Additional observations from a re-analysis of the deposited data

How the results depend on the processing

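With 2 samples a group, calls depend on single arrays and on how mice are modelled. For base minus apex over both genotypes, 1 member was called with a 60th percentile filter (Chrna9 and Lmod3 fall below it) and 1 with the mean of probe sets. Each fit with a replicate block (mouse as random, number as fixed, mouse as fixed) called 4. The block by number joins control and cKO mice of the same number, so it is not a pairing by mouse. All genes called numbered 157, and 98 with the mean of probe sets, 70 with no intensity trend, and 527, 249 and 255 under the 3 replicate blocks. Leaving out 1 array gave 0 to 4 members and 0 to 1518 genes, 1518 without control base replicate 1, 365 without control base replicate 2, and 0 without cKO apex replicate 1, cKO apex replicate 2 or cKO base replicate 1. Within cKO mice, 1 member was called with the 60th percentile filter, 3 with the random replicate block, 4 in the compared groups alone and 1 with low values raised, and 0 to 4 without 1 array. All genes called there numbered 11, against 0 with no filter, quantile scaling, 75th percentile centring, no trend or either fixed replicate block, 6 with the mean of probe sets, 81 with the random block, 449 in the compared groups alone, and 0 to 316 without 1 array. Within controls, leaving out 1 array gave 0 to 1 members and 0 to 551 genes. Between genotypes, no intensity trend called 1 gene in the apex and 1 in the base, and leaving out 1 array gave 0 to 37 genes in the base. The blocks changed no call of a member between genotypes. Some uncalled differences changed sign. With the mean of probe sets, Sri became -0.18 for genotype in the apex and 0.056 for the difference between regions, and Lbh 0.29 for the latter. With 75th percentile centring, Sri read 0.013 for base minus apex in controls. Without 1 array, genotype in the apex ranged from -0.11 to 0.54 for Chrna9, -0.033 to 0.98 for Lmod3, -0.26 to 0.29 for Sri and -0.76 to 0.42 for Lbh. In the base it ranged from -1.53 to 0.16 for Chrna9, -0.90 to 0.060 for Aqp11, -0.37 to 0.056 for Sri and -0.86 to 0.18 for Lbh. Base minus apex ranged from -0.24 to 0.028 for Sri and -0.56 to 0.028 for Lbh over both genotypes, from -0.29 to 0.25 and -0.77 to 0.41 in controls, and from -0.83 to 0.12 for Lbh in cKO mice. The difference between regions ranged from -0.23 to 0.12 for Strip2, -0.45 to 0.10 for Sri and -0.76 to 0.42 for Lbh. The cause of these changes was not tested. A fixed mouse block could not be fitted to genotype contrasts. All but 1 of the Slc26a5 values and most basal Chrna9 values lie under the filter level, where the signal limits what can be read.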
